A study of Mus musculus with 4 samples.

Results

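The largest T-cell clones of the pancreatic islets of NOD and Tet2KO NOD mice were examined in 4 libraries of single-cell T-cell receptor sequences. A cell was counted when it had exactly 1 beta chain (TRB) and at least 1 alpha chain (TRA) among its productive, full-length, high-confidence contigs, and the TRA with the most UMIs was kept. UMIs are molecular tags that count captured transcript molecules. Cells of a library formed 1 clonotype when the V segment, the J segment and the CDR3 bases of both chains were identical. Clonotypes of 10 or more cells, called large clones here, numbered 98 and held 1954 of 11035 paired cells (17.7%). They made up 1.37% of the 7179 clonotypes. The members were chosen by their measured clone size, so every size below is a description and carries no test.

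NOD mice, which develop autoimmune diabetes spontaneously, were compared with Tet2KO NOD mice. Tet2 is an enzyme that oxidises methylated cytosine in DNA. The Tet2-/- allele came from a B6 strain and had been backcrossed to NOD for over 14 generations; a backcross keeps some donor sequence flanking the deleted gene. Each genotype had 2 libraries, named sets 1 and 2 in the labels and written here as NOD 1 and NOD 2 and as Tet2KO NOD 1 and Tet2KO NOD 2; lists of 4 values keep this order. Each library pooled the islets of 4 to 6 mice aged 10 to 13 weeks per the series design. The labels' protocol instead counts these weeks from an event it abbreviates, and it mentions bone marrow transplant donors, so whether the islet donors were transplanted is unsettled. The pool is the replicate, so a p-value measures the spread between pools, and a clone can hold cells of several mice. The sex of the islet donors and the sorting of the cells are not given in the sources used here. The tables hold receptor contigs only, so CD4, CD8 and other markers of the cells were not read.

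An alpha-beta T cell assembles its TRB gene from V, D and J segments and its TRA gene from V and J segments during thymic development. The join falls in CDR3, the loop that reads the peptide held by an MHC molecule, and bases added or trimmed at the join make nearly every rearrangement distinct. All descendants of a T cell inherit both of its TRA and both of its TRB alleles, including alleles that were rearranged out of frame, so a clone carries more than its working receptor. In NOD islets, T cells against insulin and against the islet protein IGRP are known to expand.

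The contig tables held 85137263 to 220516119 reads and 1664 to 6835 called cells per library, 13345 in all. Paired cells numbered 5564 in NOD 1, 2475 in NOD 2, 1604 in Tet2KO NOD 1 and 1392 in Tet2KO NOD 2. Of the member cells, 15 had a barcode that another library also used, and leaving such barcodes out gave 97 large clones. No cell of a large clone shared its barcode with a cell of the same clonotype in another library.

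Large clones held 1064 cells in 52 clones in NOD 1 and 388 cells in 18 clones in NOD 2. Tet2KO NOD 1 had 403 cells in 21 clones, and Tet2KO NOD 2 had 99 cells in 7 clones. Their share of the paired cells was 19.1% in NOD 1 (Wilson 95% interval 18.1% to 20.2%), 15.7% in NOD 2 (14.3% to 17.2%), 25.1% in Tet2KO NOD 1 (23.1% to 27.3%) and 7.11% in Tet2KO NOD 2 (5.88% to 8.58%). These intervals cover counting error only and treat cells as independent. Member cells come in clones, so the intervals are too narrow, and they do not measure the spread between pools. The Tet2KO NOD libraries held both the highest and the lowest share, with the NOD libraries between them. The mean share was 17.4% ± 2.44 over the NOD libraries and 16.1% ± 12.7 over the Tet2KO NOD libraries (SD, n = 2), a difference of -1.28 percentage points against a pooled SD of 9.17. When each library was thinned to 1392 cells, the smallest number, the shares were 4.64%, 12.0%, 23.9% and 7.11% in the same order, since 10 cells is a smaller fraction of a larger library. After thinning NOD 1 was the lowest, and the difference between genotypes was 7.19 points, so both order and sign depended on library size.

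**Figure D1:**
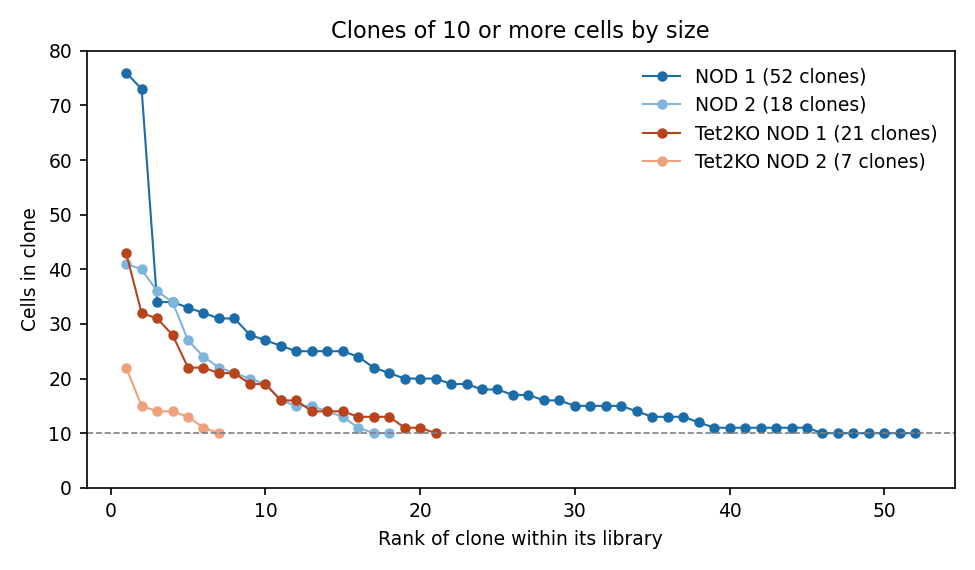
Cells per clone (y axis) against the rank of the clone within its library (x axis) for all 98 clones of 10 or more cells. Each point is a clone, colours are the 4 libraries, and the dashed line marks 10 cells. NOD 1 begins with clones of 76 and 73 cells, while Tet2KO NOD 2 has 7 clones, the largest of 22 cells.

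Sizes ran from 10 cells to 76 in NOD 1, 41 in NOD 2, 43 in Tet2KO NOD 1 and 22 in Tet2KO NOD 2. The median large clone had 17 cells in NOD 1, 19.5 in NOD 2, 16 in Tet2KO NOD 1 and 14 in Tet2KO NOD 2. Clones of 20 or more cells numbered 21, 9, 8 and 1 in these libraries. The 3 clones at the top held 17.2%, 30.2%, 26.3% and 51.5% of the member cells. They were 3 of 52, 18, 21 and 7 large clones, so these shares do not compare how steep the ranking was. At the border of the rule, 11 clonotypes had exactly 10 cells and 19 had 9.

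The largest clone of each library is shown by its CDR3 sequences, since the size ranking turns on them. All sequences run 5′ to 3′ and come from the deposited contigs. Capitals mark the bases between the V and J consensus, the stretch that the segments shared by other clonotypes do not explain. A TRA without capitals either has no such bases or, as for TRAV18 TRAJ44, uses a segment too rare for a consensus.
NOD 1 clone 1 TRB, TRBV16 TRBJ1-4, 76 cells: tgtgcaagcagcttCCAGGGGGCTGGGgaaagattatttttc
NOD 1 clone 1 TRA, TRAV18 TRAJ44: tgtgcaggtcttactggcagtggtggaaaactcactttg
NOD 1 clone 2 TRA, TRAV5-4 TRAJ50, 73 cells with the same TRB: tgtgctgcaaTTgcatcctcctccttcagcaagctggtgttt
NOD 2 clone 1 TRB, TRBV31 TRBJ2-1, 41 cells: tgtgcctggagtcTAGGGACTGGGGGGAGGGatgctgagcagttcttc
NOD 2 clone 1 TRA, TRAV3-1 TRAJ52: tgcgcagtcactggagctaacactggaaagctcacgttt
Tet2KO NOD 1 clone 1 TRB, TRBV20 TRBJ2-5, 43 cells: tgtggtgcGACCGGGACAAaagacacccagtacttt
Tet2KO NOD 1 clone 1 TRA, TRAV2 TRAJ30: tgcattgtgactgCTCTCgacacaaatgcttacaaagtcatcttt
Tet2KO NOD 2 clone 1 TRB, TRBV1 TRBJ1-4, 22 cells: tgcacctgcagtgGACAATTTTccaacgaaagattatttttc
Tet2KO NOD 2 clone 1 TRA, TRAV7D-4 TRAJ2: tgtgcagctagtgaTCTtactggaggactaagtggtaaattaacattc

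The next clones by size follow. In NOD 1, clone 3 had 34 cells of TRBV10 TRBJ1-1 with TRAV5-1 TRAJ23. In NOD 2, clone 1 had 41 cells of TRBV31 TRBJ2-1 with TRAV3-1 TRAJ52, clone 2 had 40 of TRBV31 TRBJ2-4 with TRAV6-4 TRAJ26, and clone 3 had 36 of TRBV19 TRBJ1-1 with TRAV12N-2 TRAJ49. In Tet2KO NOD 1, clone 2 had 32 cells of TRBV3 TRBJ2-7 with TRAV9-1 TRAJ53, and clone 3 had 31 of TRBV29 TRBJ2-1 with TRAV5-4 TRAJ48. In Tet2KO NOD 2, clone 2 had 15 cells of TRBV10 TRBJ2-7 with TRAV4-3 TRAJ30, and clone 3 had 14 of TRBV16 TRBJ1-3 with TRAV16N TRAJ42. The 12 clones that lead the 4 libraries therefore used 8 TRBV and 11 TRAV segments. Over all 98 clones, the number of TRB bases outside the V and J consensus ran from 1 to 19, with a median of 11. For TRA it ran from 0 to 11 with a median of 3, over the 97 clones whose segments had a consensus, and 9 clones had none.

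Whether the cells of a large clone descended from 1 rearranged cell was read from nonproductive contigs, which the rule had not used. They were compared by V and J names only, so such a contig need not be an out-of-frame allele. In NOD 1 clone 9, 6 of 7 cells with a nonproductive TRA had TRAV12N-2 TRAJ49, the pair of its own further productive TRA. In NOD 1 clone 2, 15 of 16 had TRAV18 TRAJ44, likewise the pair of its further TRA. A nonproductive TRA was seen in 30.8% of member cells and in 26.4% of the paired cells of smaller clonotypes. In 69 clones at least 2 cells carried one, 37 of them in NOD 1, 11 in NOD 2, 16 in Tet2KO NOD 1 and 5 in Tet2KO NOD 2. Of the 595 carriers in these clones, 566 had the V and J pair most common in their clone. In 56 clones every carrier had it. Among carriers in other clonotypes of the same library, that pair made up a median of 0% and at most 1.40%.

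Nonproductive TRB contigs gave the same picture. A nonproductive TRB was seen in 12.1% of member cells and in 12.0% of the others. It was carried by at least 2 cells of 27 clones, and 222 of 228 carriers had the pair most common in their clone, which made up at most 2.42% of carriers elsewhere. Together, 75 of the 98 clones had at least 2 carriers for either chain, and in 73 of them most carriers of a chain had 1 pair. NOD 1 clone 4, of 34 cells, had both: 21 of 21 carriers had TRAV1 TRAJ31 and 29 of 29 had TRBV31 TRBJ2-4. In NOD 2 clone 3, 29 of 29 carriers had TRAV13N-3 TRAJ45.

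In 13 of the 69 clones at least 1 carrier of a nonproductive TRA had another pair, and in 4 of the 27 at least 1 carrier of a nonproductive TRB did. In Tet2KO NOD 1 clone 4, 9 of 18 carriers had the most common nonproductive TRA. In NOD 2 clone 15 it was 2 of 5, and in NOD 1 clone 26 it was 2 of 4. The other 23 clones had no pair of carriers for either chain, which says nothing of their origin.

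**Figure D2:**
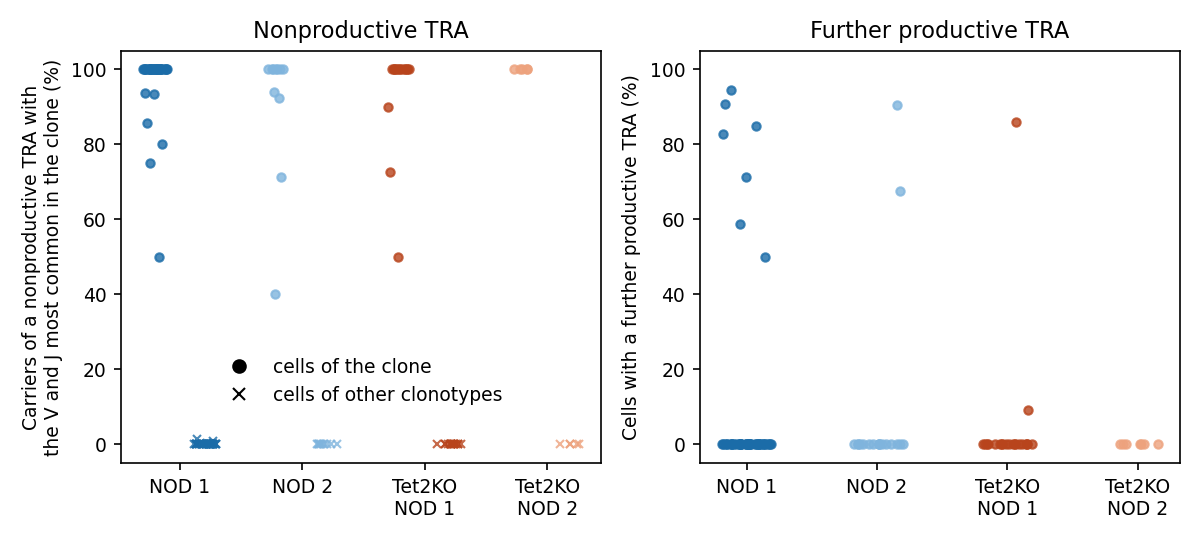
Left, the percent of cells with a nonproductive TRA that had the V and J pair most common in their clone (points, the 69 clones with at least 2 such cells) and the percent of carriers in other clonotypes of that library with the same pair (crosses, at most 1.40%). Right, the percent of a clone's cells with a further productive TRA, for all 98 clones, with 87 at 0 and 10 at 50% or more. Points are clones, spread sideways for visibility.

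A second productive TRA was in no cell or in most cells of nearly every clone. It appeared in no cell of 87 clones, in at least 50% of the cells of 10 clones, and in 1 of 11 cells of Tet2KO NOD 1 clone 19. For the class as a whole, the percent of cells with it was 16.4%, 10.8%, 9.43% and 0% in the 4 libraries, against 11.6%, 13.2%, 11.0% and 11.7% in smaller clonotypes. Large clones were thus higher only in NOD 1, and the mean difference of -2.68 percentage points was smaller than its SD of 6.81 (n = 4, exact sign-flip permutation p = 0.625, adjusted p = 0.735).

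The 6 clones of 3 pairs were split by the rule itself. NOD 1 clones 1 and 2, whose sequences stand above, share 1 TRB; 63 of 76 cells of clone 1 also carried the TRA of clone 2, and 43 of 73 cells of clone 2 carried that of clone 1. Of the 16 cells of clone 2 with a nonproductive TRA, 15 had TRAV18 TRAJ44, the segments of the TRA of clone 1. NOD 1 clones 20 and 24 share a TRBV19 TRBJ2-5 chain, and 17 of 20 and 17 of 18 cells carried the TRA of the other. NOD 2 clones 4 and 8 share a TRBV16 TRBJ2-1 chain, with 23 of 34 and 19 of 21 such cells. Which TRA has more UMIs in a cell decided its clonotype, so the rule counted both clonotypes of a pair apart although most of their cells carried both TRA.

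In 4 other clones a second TRA was found in at least 50% of the cells. Tet2KO NOD 1 clone 1 carried TRAV15D-1-DV6D-1 TRAJ12 in 37 of 43 cells. In NOD 1, the further TRA was TRAV12N-2 TRAJ49 in 20 of 28 cells of clone 9, TRAV9-1 TRAJ31 in 10 of 11 cells of clone 42, and TRAV6-5 TRAJ17 in 5 of 10 cells of clone 48.

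One more pair with a shared TRB differed, and its chains are shown because the shared TRB meets both TRA in separate cells.
Tet2KO NOD 1 clones 10 and 15 TRB, TRBV31 TRBJ2-5: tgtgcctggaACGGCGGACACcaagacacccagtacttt
Tet2KO NOD 1 clone 10 TRA, TRAV6D-6 TRAJ12: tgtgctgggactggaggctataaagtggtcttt
Tet2KO NOD 1 clone 15 TRA, TRAV6D-6 TRAJ30: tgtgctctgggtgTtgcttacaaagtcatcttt
None of the 19 cells of clone 10 and none of the 14 cells of clone 15 had both TRA. A nonproductive TRAV12N-2 TRAJ9 was seen in 15 of 19 cells of clone 10 and in 0 of 14 of clone 15. In all, 23 large clones had a TRB that occurred with another TRA in the same library, and 94 TRB sequences covered the 98 clones. The authors' deposited clonotype numbers kept the cells of 95 clones under 1 number and matched 84 clones cell for cell.

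The rule left out barcodes that carried the TRB of a large clone. A further 176 called cells had it with no TRA, 97, 24, 40 and 15 in the order of libraries above. Another 95 called cells had it beside a second TRB, 80 of them in NOD 1, 13 in NOD 2 and 2 in Tet2KO NOD 1. A further 302 barcodes with it were not called as cells, 224, 46, 23 and 9 in the 4 libraries. They made up 53.0%, 43.4%, 20.4% and 15.8% of the uncalled barcodes with a productive TRB.

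Of the NOD 1 cells with a second TRB, 28 carried the same 2 chains. Their sequences are shown because both are also the TRB of a large clone.
NOD 1 clone 25 TRB, TRBV3 TRBJ1-3: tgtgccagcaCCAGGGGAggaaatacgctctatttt
NOD 1 clone 25 TRA, TRAV6D-6 TRAJ56: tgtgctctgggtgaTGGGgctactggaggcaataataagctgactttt
NOD 1 clone 10 TRB, TRBV3 TRBJ2-1: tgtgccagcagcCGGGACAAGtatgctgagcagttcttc
NOD 1 clone 10 TRA, TRAV14-3 TRAJ43: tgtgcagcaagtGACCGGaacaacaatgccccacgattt
Their median UMI counts were 27.5 for the first TRB and 19 for the second. All 28 carried the TRA of clone 25, of 18 cells, and 0 carried that of clone 10, of 27 cells. The nonproductive TRAV7N-4 TRAJ56, found in 8 of 8 carriers of clone 25, was found in 15 of the 28. Clone 10 had another nonproductive TRA, TRAV13-1 TRAJ42, in 16 of 16 carriers. In all, 15 pairs of TRB that include that of a large clone were seen in at least 2 cells (67 cells), and 13 of the pairs used 1 TRBV for both chains. Among all cells with 2 TRB, both used 1 TRBV in 24.9% of 393 in NOD 1, 11.0% of 127 in NOD 2, 12.1% of 66 in Tet2KO NOD 1 and 7.58% of 66 in Tet2KO NOD 2.

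In every library the median TRB count per cell was highest in large clones. It was 17 UMIs in NOD 1, 24 in NOD 2, 14 in Tet2KO NOD 1 and 21 in Tet2KO NOD 2. In clonotypes of 2 to 9 cells it was 12, 16, 10 and 14, and in cells alone in their clonotype 9, 11, 8 and 9, so the order held in each library for TRB. For TRA the medians of large clones were 8, 7, 8 and 8, against 7, 8, 6 and 7 in clonotypes of 2 to 9 cells and 5, 6, 4 and 5 in cells alone in their clonotype, so in NOD 2 the middle class was above large clones.

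On the log2 scale, averaged over the clonotypes of a library, TRB was higher in large clones by 0.90 ± 0.20 (SD, n = 4 libraries) and TRA by 0.54 ± 0.16, in 4 of 4 libraries each. The exact two-sided sign-flip permutation test gave p = 0.125 for both, the smallest that 4 libraries allow, with adjusted p = 0.313 over the 20 features tested this way. Among the clones, 82 of 98 had a median TRB count above that of the smaller clonotypes of their library, and 77 of 98 did so for TRA. Clone medians ran from 4 UMIs in NOD 1 clone 33 to 57.5 in NOD 2 clone 18. A cell with more UMIs is more likely to show both chains and to be called, and the part of this in clone size was not tested.

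The segment combinations of large clones were found again in other pools for a larger share of clones than those of smaller clonotypes, in all 4 libraries. TRBV, TRBJ, TRAV and TRAJ occurred together in a different clonotype of another library for 30.8% of large clones in NOD 1, 44.4% in NOD 2, 33.3% in Tet2KO NOD 1 and 42.9% in Tet2KO NOD 2. The shares for smaller clonotypes were 6.44%, 9.43%, 10.5% and 13.5%. Every library's large clones lay above every library's smaller clonotypes, and the mean difference was 27.9 percentage points ± 5.50 (SD, n = 4). The exact sign-flip permutation test gave p = 0.125, the smallest possible (adjusted p = 0.313). The difference ran from 15.5 to 30.2 points over the alternatives, and at 20 or more cells it held in 3 of 4 libraries. This property was added after the data had been seen.

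Of the 98 large clones, 42 shared all 4 segments with another clonotype of any library (42.9%), against 11.6% of the 7081 smaller clonotypes. For 27 the other clonotype also differed by at most 2 amino acids in each CDR3 (27.6% against 5.34%), and for 20 it lay in another library (20.4% against 4.29%). In 9 clones the amino acids of both CDR3 were the same and only the bases differed (9.18% against 1.65%). Per library, the share with such a relative at most 2 amino acids away was 34.6%, 27.8%, 14.3% and 14.3% in large clones and 4.43%, 5.31%, 4.67% and 9.23% in smaller clonotypes. These shares were added after the data had been seen and were not tested.

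The TRB joins of large clones had a lower mean number of bases outside the V and J consensus in each library. It was 10.9 in NOD 1, 9.67 in NOD 2, 10.4 in Tet2KO NOD 1 and 10.3 in Tet2KO NOD 2, against 11.2, 11.5, 11.1 and 11.3 in smaller clonotypes. The 4 values of large clones all lay below the 4 of smaller clonotypes, with a mean difference of -0.94 ± 0.64 bases (SD, n = 4, exact sign-flip permutation p = 0.125, adjusted p = 0.313). For TRA the means were 3.24, 3.11, 3.62 and 3.00 against 3.67, 3.67, 3.66 and 3.61, a difference of -0.41 ± 0.26 (n = 4, the same exact p). Both moved with the size limit. With clones of 5 or more cells the TRA difference was 0.0431 and the TRB difference -0.255, with large clones higher in 2 of 4 libraries for TRB. The TRB difference was -0.621 at 20 or more cells, again with 2 of 4 libraries higher, and -0.316 at a 0.5% share of a library's cells, with 1 higher.

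**Figure D3:**
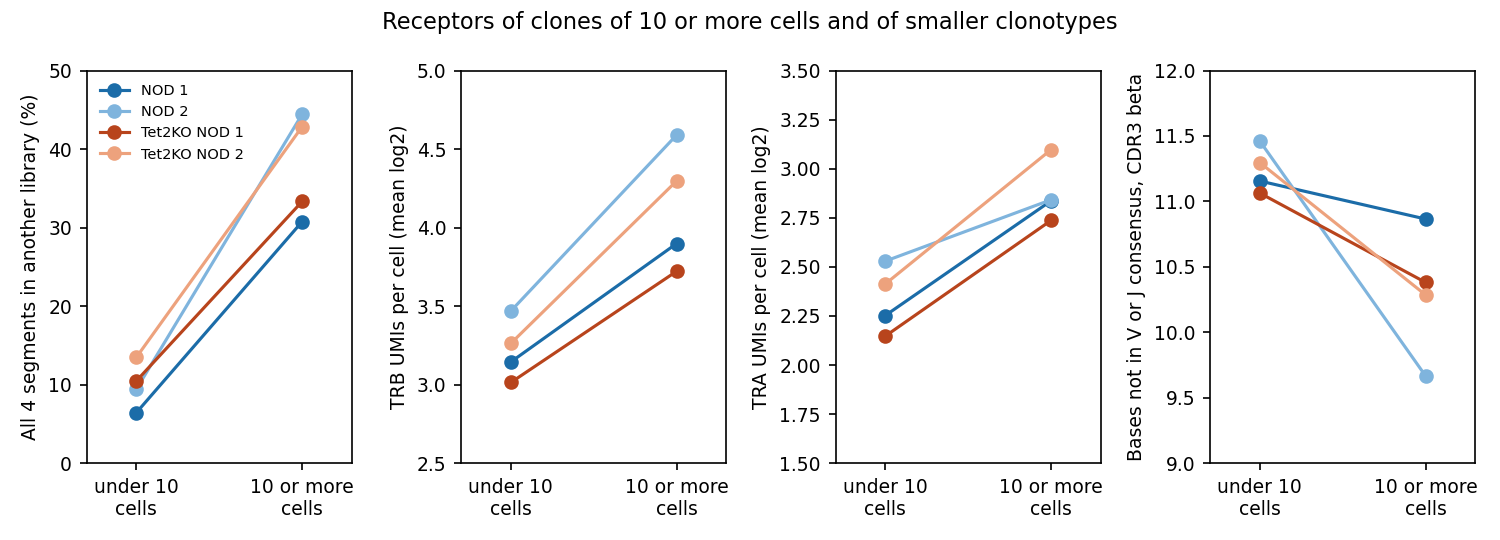
Values per library (points joined by lines, 1 colour per library) in clonotypes under 10 cells and in large clones. From left to right, the percent of clonotypes whose 4 segments occur together in another library, the mean log2 TRB and TRA UMIs per cell, and the mean number of CDR3 beta bases outside the V and J consensus. Only the first axis starts at 0, and the first 3 values are higher and the last lower in large clones in all 4 libraries.

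Other receptor features did not separate the classes in every library. CDR3 beta amino acids coded by other bases in another library were found for 21.2%, 16.7%, 14.3% and 0% of large clones and for 1.86%, 3.28%, 3.53% and 5.27% of smaller clonotypes. Large clones were higher in 3 of 4 libraries, and the 7 large clones of Tet2KO NOD 2 had none, a count of 0 that allows a share of up to 42.9%. The difference was 9.54 points ± 10.5 (SD, n = 4, exact sign-flip permutation p = 0.250, adjusted p = 0.357), and 2.66 points without NOD 1. A CDR3 beta 1 amino acid away in another library was found for 19.2%, 16.7%, 38.1% and 42.9% against 11.5%, 17.0%, 18.9% and 20.1%, again higher in 3 of 4.

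Differences in loop length and hydropathy were small beside the spread between libraries. The mean difference in length was -0.41 amino acids ± 0.42 for CDR3 beta and 0.30 ± 0.38 for CDR3 alpha (SD, n = 4). The mean Kyte-Doolittle hydropathy of CDR3 beta positions 6 and 7 differed by -0.37 ± 0.62. None of these 3 differences exceeded its SD, and each changed sign in at least 1 library. CDR3 beta length was lower in all 4 libraries and beyond its SD under 4 alternatives: clones defined by TRB alone (-0.495, SD 0.243), by the deposited numbers (-0.500, SD 0.233), at 20 or more cells (-0.379, SD 0.259) and without shared barcodes (-0.452, SD 0.366).

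Among pairs of TRAV and TRAJ, the one with the most large clones was TRAV16N with TRAJ42, an alpha chain known from CD8 T cells of NOD islets that recognise IGRP. TRAV16N lies at chr14:53351028-53351621 and TRAJ42 at chr14:54175773-54175836 of GRCm38, both on the plus strand. The list held 57 clonotypes with 296 cells, of which 10 were large clones with 211 cells, 6 in NOD 1, 3 in NOD 2, 0 in Tet2KO NOD 1 and 1 in Tet2KO NOD 2. It made up 11.5%, 16.7%, 0% and 14.3% of large clones in the 4 libraries, against 0.649%, 0.597%, 0.911% and 0.609% of smaller clonotypes. Large clones were higher in 3 libraries, and the 0 of 21 in Tet2KO NOD 1 allows up to 14.3%. The difference was 9.93 points ± 7.53 (SD, n = 4, exact sign-flip permutation p = 0.250, adjusted p = 0.357). Among all 7179 clonotypes 1.37% were large, and among the 57 of this list 17.5% were.

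The TRA chains of these 10 clones are shown because they define the group.
NOD 1 clone 51 and NOD 2 clone 7: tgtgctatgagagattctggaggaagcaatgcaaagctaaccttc
NOD 1 clones 19 and 26: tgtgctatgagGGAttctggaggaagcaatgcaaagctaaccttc
NOD 1 clones 5 and 16: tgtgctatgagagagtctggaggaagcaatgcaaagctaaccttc
NOD 1 clone 11: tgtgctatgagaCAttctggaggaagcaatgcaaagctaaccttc
NOD 2 clone 16: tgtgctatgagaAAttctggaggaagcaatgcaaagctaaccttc
NOD 2 clone 4: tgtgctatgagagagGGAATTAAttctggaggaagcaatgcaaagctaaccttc
Tet2KO NOD 2 clone 3: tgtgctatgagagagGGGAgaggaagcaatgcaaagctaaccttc
All but that of NOD 2 clone 4 have the same length. NOD 1 clone 51 and NOD 2 clone 7 share their TRA to the base, although 10 cells of the former used TRBV3 and 22 of the latter TRBV13-3. The beta segment was TRBV13-3 in 5 of the clones (NOD 1 clones 5, 19 and 26, NOD 2 clones 7 and 16), TRBV10 in 2 (NOD 1 clones 11 and 16), TRBV16 in 2 (NOD 2 clone 4, Tet2KO NOD 2 clone 3) and TRBV3 in 1. Their sizes ran from 34 cells in NOD 2 clone 4 and 33 in NOD 1 clone 5 to 10 in NOD 1 clone 51. Nonproductive TRA differed between these clones where carriers existed. NOD 1 clone 5 had TRAV6N-5 TRAJ50 in 25 of 25 carriers, NOD 1 clone 16 had TRAV9N-3 TRAJ31 in 9 of 9, and NOD 2 clone 7 had TRAV12-3 TRAJ40 in 12 of 13.

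**Figure D4:**
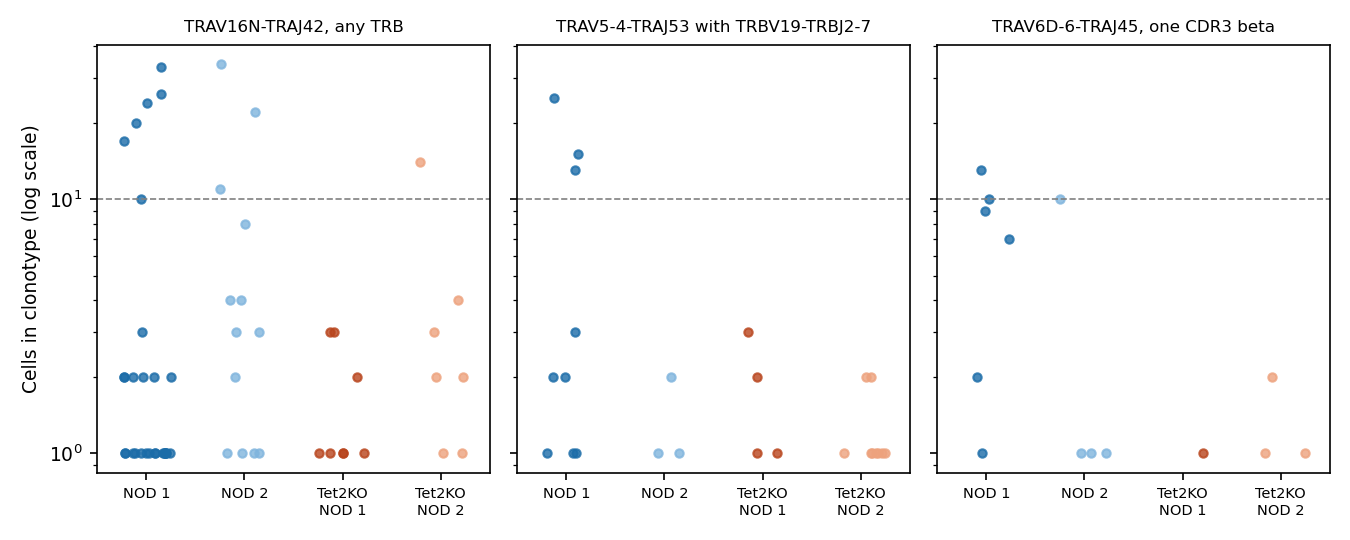
Cells per clonotype (y axis, log scale) in each library for 3 groups of related receptors. Points are clonotypes, spread sideways, and the dashed line marks 10 cells. Large clones number 10 of 57 clonotypes in the first group, 3 of 25 in the second and 3 of 14 in the third, and none of these 16 lies in Tet2KO NOD 1.

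A second group paired TRAV5-4 TRAJ53 with TRBV19 TRBJ2-7. Alpha chains of the TRAV5 family with TRAJ53 are known from insulin-reactive T cells of NOD mice. It counted 25 clonotypes and 85 cells, 9 clonotypes in NOD 1, 3 in NOD 2, 4 in Tet2KO NOD 1 and 9 in Tet2KO NOD 2, with 23 distinct TRB and 9 distinct TRA sequences. The 3 large clones were all in NOD 1 and are shown to compare their joins.
NOD 1 clone 14 TRB, 25 cells: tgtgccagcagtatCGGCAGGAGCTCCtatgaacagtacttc
NOD 1 clone 33 TRB, 15 cells: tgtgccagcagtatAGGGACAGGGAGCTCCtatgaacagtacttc
NOD 1 clone 37 TRB, 13 cells: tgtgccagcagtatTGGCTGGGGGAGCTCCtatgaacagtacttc
NOD 1 clone 14 TRA: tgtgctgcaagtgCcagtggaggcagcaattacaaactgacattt
NOD 1 clone 33 TRA: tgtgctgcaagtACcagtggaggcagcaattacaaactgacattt
NOD 1 clone 37 TRA: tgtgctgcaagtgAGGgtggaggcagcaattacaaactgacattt
The 3 clones have 3 different joins in each chain. Clone 14 carried the nonproductive TRAV8D-2 TRAJ35 in 13 of 13 carriers and clone 37 carried TRAV6N-5 TRAJ49 in 9 of 9, while clone 33 showed none. The median TRB count of clone 33 was 4 UMIs, against 14 and 15 in the others.

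Another group had very short TRB joins. It was defined as TRAV6D-6 TRAJ45 with 1 CDR3 beta amino acid sequence, of TRBV13-2 and TRBJ2-7. It held 14 clonotypes and 60 cells, 42 of them in NOD 1, 13 in NOD 2, 1 in Tet2KO NOD 1 and 4 in Tet2KO NOD 2. The deposited names write its V segment as TRBV13-2 or as the joint name TRBV12-2+TRBV13-2. In NOD 1, 2 pairs of clonotypes with the same bases in both chains differ only by this name, so the 14 would be 12 if the names were joined, with the same number of large clones. All 14 were built from 3 TRB and 3 TRA sequences, and the 3 large clones show how.
NOD 1 clone 35 TRB, 13 cells: tgtgccagcggGGACtatgaacagtacttc
NOD 1 clone 47 TRB, 10 cells: tgtgccagcggtgaCtatgaacagtacttc
NOD 2 clone 17 TRB, 10 cells: tgtgccagcggtgaTtatgaacagtacttc
NOD 1 clone 35 and NOD 2 clone 17 TRA: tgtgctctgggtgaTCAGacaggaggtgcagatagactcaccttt
NOD 1 clone 47 TRA: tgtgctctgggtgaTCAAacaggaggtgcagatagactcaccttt
These TRB had 4, 1 and 1 bases outside the consensus, where the median large clone had 11. NOD 1 clone 22, of 19 cells, used the same 4 segments but lay outside the group. Its CDR3 beta was another, with 15 bases outside the consensus. Cells of these 3 clones showed no nonproductive TRA and no nonproductive TRB. NOD 1 clone 47 also occurred as 1 cell in each Tet2KO NOD library, and NOD 2 clone 17 as 7 cells in NOD 1 and 2 in Tet2KO NOD 2. None of these cells elsewhere had a barcode of the clone, and pools of different genotype hold different mice.

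Other groups joined large clones of different genotypes. TRBV20 TRBJ2-5 with TRAV2 TRAJ30 formed 3 clonotypes with 61 cells, among them the largest clone of Tet2KO NOD 1, shown above, and NOD 2 clone 13, of 15 cells. Their TRB lines are set together with another pair, TRBV10 TRBJ2-7 with TRAV4-3 TRAJ30, found in NOD 1 clone 39 (11 cells) and Tet2KO NOD 2 clone 2 (15 cells).
NOD 2 clone 13 TRB: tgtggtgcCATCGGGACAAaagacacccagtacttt
NOD 2 clone 13 TRA: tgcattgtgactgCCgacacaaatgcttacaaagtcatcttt
NOD 1 clone 39 TRB: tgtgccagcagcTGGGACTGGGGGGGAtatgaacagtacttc
Tet2KO NOD 2 clone 2 TRB: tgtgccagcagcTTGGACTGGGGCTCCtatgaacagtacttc
The clonotype of NOD 2 clone 13 also had 3 cells in Tet2KO NOD 2. In Tet2KO NOD 1, clones 11 and 19, of 16 and 11 cells, used TRBV12-2 TRBJ2-5 with TRAV1 TRAJ32, and 1 cell of NOD 2 had the same segments. In the NOD libraries, NOD 2 clone 3 and NOD 1 clone 9, of 36 and 28 cells, had TRBV19 TRBJ1-1 chains of 1 amino acid sequence and different bases, and both carried TRAV12N-2 TRAJ49, clone 9 as its further TRA.

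Exact sharing with another library was seen for 9 of the 98 large clones. The share among smaller clonotypes is not given here, so this count is not read as particular to large clones. Tet2KO NOD 1 clone 17 (TRBV16 TRBJ2-7 with TRAV2 TRAJ7) had 13 cells there and 7 in NOD 1. NOD 2 clone 7 had 22 cells and 2 in Tet2KO NOD 2, and NOD 2 clone 1 had 41 and 1. NOD 1 clones 17, 18 and 24, of 22, 21 and 18 cells, had 1 cell each in Tet2KO NOD 1. The other three are named above.

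Single segments were compared between large clones and smaller clonotypes by counting each clonotype once, with edgeR's quasi-likelihood test and the library as a block. None of 124 segments passed an adjusted p of 0.05 (0% called), 6 had an unadjusted p below 0.05, and DESeq2 called 0 with 3 unadjusted. The median log2 fold change over all 124 segments was -0.45, and 50 of them were above 0.

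TRAJ42 had the smallest p. It was used by 13.5% of large clones in NOD 1, 16.7% in NOD 2, 0% in Tet2KO NOD 1 and 28.6% in Tet2KO NOD 2, and by 2.68%, 3.34%, 3.87% and 3.25% of smaller clonotypes. Large clones were higher in 3 libraries and had none in Tet2KO NOD 1. Over all libraries this was 12 of 98 clones (12.2%) against 3.06%, and 10 of the 12 paired it with TRAV16N. The log2 fold change was 2.00 (SE 0.59, edgeR adjusted p = 0.107), and 1.66 to 2.43 with each library left out. TRAJ42 was called only without Tet2KO NOD 1, the library in which no large clone used it (edgeR adjusted p = 0.0181). Without NOD 1, NOD 2 or Tet2KO NOD 2, the smallest edgeR adjusted p of any segment was 0.837, 0.892 and 0.740.

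Of the TRBV segments, TRBV10 and TRBV16 were higher in large clones in all 4 libraries, 2 of 124 segments (1.61%), while 38 (30.6%) were lower in all 4. With 18 large clones in NOD 2 and 7 in Tet2KO NOD 2, many segments had a count of 0, which scores as lower. The 38 are therefore not a measure of segments that large clones avoid. TRBV10, at chr6:41091940-41092228, is annotated as a pseudogene in the B6 genome build, yet its chains here were productive. It was used by 7.69%, 5.56%, 4.76% and 28.6% of large clones against 2.48%, 2.69%, 2.39% and 3.14% of smaller clonotypes (log2 fold change 1.68, SE 0.68, edgeR adjusted p = 0.702). TRBV16, the most used TRBV with 10 clones, lies at chr6:41151740-41152230; NOD 1 clones 1 and 2 and NOD 2 clones 4 and 8, which share their TRB in pairs, are among them. Its shares were 7.69%, 11.1%, 9.52% and 28.6% against 6.89%, 6.39%, 7.40% and 6.80% (log2 fold change 0.58, SE 0.62, edgeR adjusted p = 0.775). With TMM scaling, which moved the median over all segments from -0.45 to -1.42, its log2 fold change was -0.38.

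**Figure D5:**
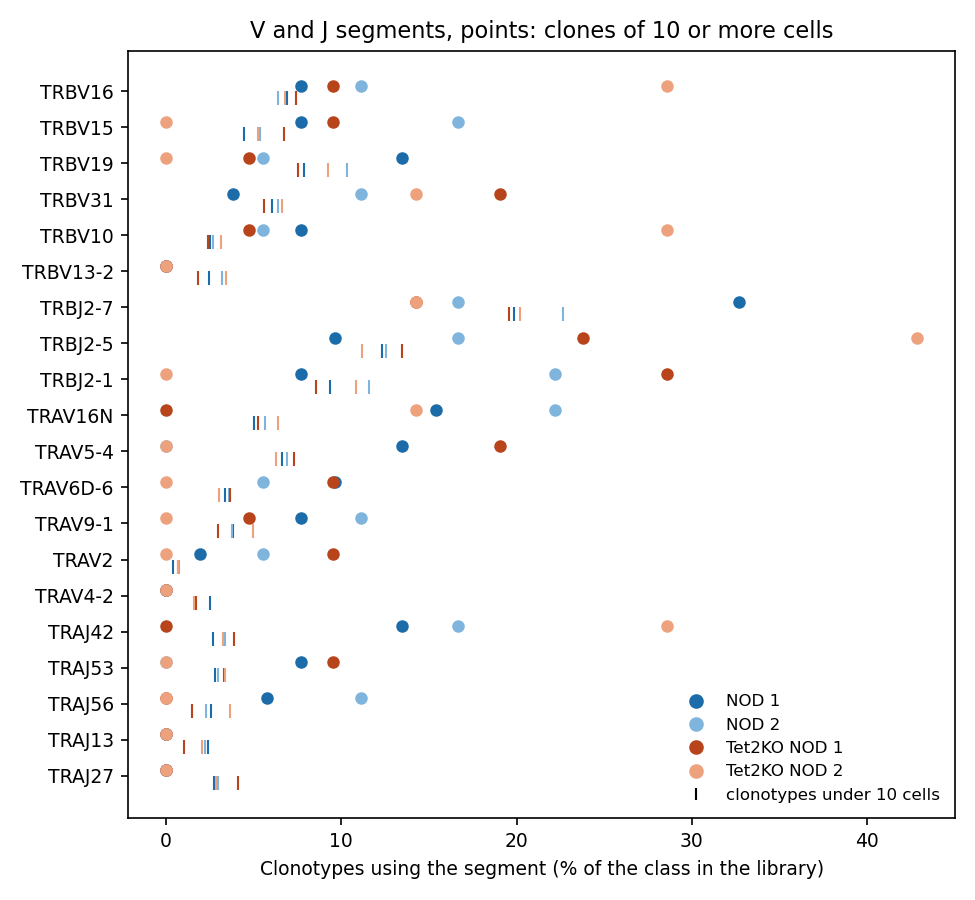
Percent of clonotypes using each named segment, in large clones (points) and in clonotypes under 10 cells (ticks), with 1 colour per library. TRBV10 and TRBV16 have all 4 points above the ticks of their library, and TRBV13-2, TRAV4-2, TRAJ13 and TRAJ27 have all 4 points at 0; points at 0 overlie each other.

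After TRBV16, the TRBV segments most used by large clones were TRBV15, TRBV19 and TRBV31 with 9 clones each and TRBV10 with 8. Among TRAV these were TRAV16N with 13 clones, TRAV5-4 with 11, TRAV6D-6 with 8, TRAV9-1 with 7 and TRAV2 with 4. TRBJ2-7 was used by 24 clones, TRBJ2-5 by 16, TRBJ2-1 by 14, TRAJ53 by 6 and TRAJ56 by 5. The 11 clones with TRAV5-4 were 7 in NOD 1 and 4 in Tet2KO NOD 1. TRAV2 had 4 of 98 clones against 0.565% of smaller clonotypes (edgeR adjusted p = 0.702).

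Several common segments had no large clone. TRAJ27 had 0 of 98 against 211 smaller clonotypes, TRBV13-2 had 0 against 190, TRAJ13 had 0 against 150 and TRAV4-2 had 0 against 147. A count of 0 in 98 allows a share of up to 3.06%, and the shares of smaller clonotypes were 2.98%, 2.68%, 2.12% and 2.08%, so these zeros were not detectable as differences. The zero of TRBV13-2 depends on the name. The joint name TRBV12-2+TRBV13-2 was used by 6 large clones, and the TRB bases of 5 of them were also deposited as TRBV13-2 alone. With both names joined, TRBV13-2 had 6 of 98 large clones (6.12%) against 14.3% of smaller clonotypes (log2 fold change -1.23, SE 0.66, edgeR adjusted p = 0.696).

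No large clone had a receptor of the unconventional types listed. TRAV11 with TRAJ18, the alpha chain of invariant NKT cells, was found in 0 of 98 large clones and 24 of 7081 smaller clonotypes, and TRAV1 with TRAJ33, that of MAIT cells, in 0 and 5. A count of 0 in 98 allows a share of up to 3.06%. The shares of smaller clonotypes were 0.339% and 0.0706%, so neither zero was detectable as a difference. The TRBV13 family was used by 23.1% of large clones in NOD 1, 16.7% in NOD 2, 4.76% in Tet2KO NOD 1 and 0% in Tet2KO NOD 2, against 28.8%, 27.9%, 28.5% and 27.1% of smaller clonotypes. Every library's large clones were lower, with a mean difference of -17.0 percentage points (SD 10.1, n = 4, exact sign-flip permutation p = 0.125, adjusted p = 0.313). Over all libraries pooled, the TRAV5 family had 15 of 98 large clones (15.3% against 11.3%), 11 of them in NOD 1, 4 in Tet2KO NOD 1 and 0 in the others, and its mean difference within libraries was -1.56 points, with 2 of 4 higher. TRBV19 had 9 (9.18% against 8.60%), 7 of them in NOD 1, and its mean difference within libraries was -2.79 points, with 1 of 4 higher. Pooled, TRBV2 had 2 (2.04% against 5.89%), the TRBJ2 cluster 68 (69.4% against 66.9%) and segments shared with the delta locus 5 (5.10% against 6.09%). For none of these 5 lists did the mean difference exceed its SD.

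Between genotypes, the large clones could be compared for 8 segments with enough clones, and edgeR called 0 of them (0% called; 0 unadjusted). The difference between large and smaller clonotypes was called to differ by genotype for 0 of 124 segments (0% called; 0 unadjusted). Of the 11 receptor properties, 5 had within-library differences that did not overlap between genotypes. For any property, 0.333 of the assignments of the 4 libraries to genotypes leave no overlap, so the exact permutation test can give no smaller p. The count of 5 is therefore not read as a difference between genotypes. With each cell counted once the count was 2. The 5 were both CDR3 lengths, both measures of CDR3 beta in another library, and TRA UMIs. Of the 9 lists, those of the TRBV13 family, TRBV2, segments shared with the delta locus and invariant NKT cells also did not overlap. The same 0.333 applies to each list, so these are not read as differences between genotypes either. For invariant NKT cells all large-clone shares were 0, so the differences only mirror the shares of smaller clonotypes. With 28 large clones in the Tet2KO NOD libraries together, and only 7 in Tet2KO NOD 2, these comparisons rest on few clones.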

How the data were processed

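Receptor contigs were called and counted with Cell Ranger 7.0.1 on GRCm38 (mm10), per the submitters' processing notes. The V(D)J reference and the receptor library kit are not given in the sources used here, and the labels' protocol describes nuclei for another assay. UMI counts and read counts per contig were used as deposited by the authors. Members, lists and properties were chosen with earlier results of these data known. Named were the 3 largest clones of each library, clones found in another library, pairs of clones with 1 TRB, clones of the TRAV16 and TRAJ42 list, clones of different libraries with the same CDR3 beta amino acids, the segments with the most large clones (5 TRBV, 5 TRAV, 3 TRBJ, 3 TRAJ), any segment that passed the test, and up to 4 segments each higher or lower in all 4 libraries by smallest p; further clones were chosen after their values were seen. The V and J consensus was the most frequent base at each CDR3 position, at a share of at least 50% over at least 10 clonotypes with that segment. Nonproductive contigs were high-confidence contigs of called cells, compared by V and J names only.

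Clonotypes were summed per segment in 8 columns (4 libraries, large and smaller), and segments reaching 10 clonotypes in 2 or more columns were tested with edgeR 4.0.16 in R 4.3.3, whose standard errors are approximate, and with DESeq2 1.42.0. Benjamini-Hochberg adjustment ran across the 124 segments. The edgeR step was tested on simulated data. Properties were compared by exact two-sided sign-flip permutation over the 4 libraries and by exact permutation over genotypes, neither of which can pass 0.05; their p-values were adjusted over 11 properties and 9 lists, 20 in all. Python 3.11.15 was used with pandas 2.3.3, numpy 2.4.6 and scipy 1.17.1. Thinning used 200 draws.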

Additional observations from a re-analysis of the deposited data

Results flagged for a closer look

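TRAJ56 lay above the smaller clonotypes in both NOD libraries and below them in both Tet2KO NOD libraries. It was used by 5.77% and 11.1% of large clones in NOD 1 and NOD 2, against 2.57% and 2.27% of smaller clonotypes, and by 0% in Tet2KO NOD 1 and 2, against 1.48% and 3.65%. The mean difference between large and smaller clonotypes in Tet2KO NOD minus that in NOD was -8.59 percentage points (n = 2 libraries each). The edgeR interaction with genotype had an unadjusted p of 0.265 and an adjusted p of 1. It rests on 5 clones, 3 in NOD 1 and 2 in NOD 2. The zeros of 21 and 7 large clones allow shares of up to 14.3% and 42.9%, so a lower share in Tet2KO NOD was not detectable. Only named segments were searched for this flag, and opposite directions were not particular to TRAJ56. TRBV13-3 and TRAJ45 had the same directions, and TRAJ32, TRAJ37 and TRAV3-3 the reverse. Their unadjusted p in the edgeR interaction was smaller than that of TRAJ56 (0.105, 0.169, 0.0916, 0.108 and 0.114).

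Barcodes that were not called as cells, which no comparison above uses, carried the TRB of a large clone 302 times. These were 224 of 423 uncalled barcodes with a productive TRB in NOD 1, 46 of 106 in NOD 2, 23 of 113 in Tet2KO NOD 1 and 9 of 57 in Tet2KO NOD 2. Large clones held 19.1%, 15.7%, 25.1% and 7.11% of the paired cells. The TRB of these barcodes had a median of 7, 15, 15.5 and 9 UMIs, against 17, 24, 14 and 21 in the called cells of large clones.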

How the results depend on the processing

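The share of cells in large clones had no stable direction between genotypes: leaving out each library gave differences from -10.3 points (without Tet2KO NOD 1) to 7.72 (without Tet2KO NOD 2), clones of at least 0.5% of a library's cells gave 9.46, and thinning gave 7.19. The number of clones was 256 at 5 or more cells, 39 at 20 or more, 41.0 after thinning, and 46 (without NOD 1) to 91 without each library. Segment calls were 1 at 5 or more cells (TRAV2, higher, edgeR adjusted p = 0.0337), 1 at a 0.5% share (TRBV12-2+TRBV13-2, lower, edgeR adjusted p = 0.0278) and 0 to 1 without each library (TRAJ42 without Tet2KO NOD 1, edgeR adjusted p = 0.0181). The log2 fold change of TRBV16 was -0.38 with TMM. Differences that turned were CDR3 alpha bases at 5 or more cells (0.0431), hydropathy at 20 or more cells (0.0125), and the percent of cells with a further TRA at 20 or more cells (2.57), at a 0.5% share (3.40), with TRB alone (2.18), with the deposited numbers (1.90) and without each library (-5.20 to 0.319, the latter without Tet2KO NOD 2). Properties that did not overlap between genotypes numbered 2 of 11 with each cell counted once and 6 to 9 of 11 without each library. With a library left out, the lone library of its genotype need only be highest or lowest. No overlap is then more frequent by design, so 6 to 9 is not read as a result. The cause of the other changes was not tested. Counting the joint name TRBV12-2+TRBV13-2 as TRBV13-2, an alternative chosen after seeing the data, gave 98 clones and 0 segment calls. Of the values for comparisons named in the design, 261 under an alternative kept their direction and their side of the threshold or moved little, 11 moved and 7 turned.

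Replicate numbers name sets, and over 8 segments the same-numbered libraries' deviations correlated at 0.0239. So few segments cannot decide whether the libraries of 1 set belong together, and the main comparison treated them as unpaired. With the replicate block, edgeR called 0 of 8 segments between genotypes, as without it. Left-out libraries leave 1 genotype with 1 library, which edgeR assumes to vary like the others. Depth limits the clones most in Tet2KO NOD 2, where 10 cells are 0.718% of the paired cells, against 0.180% in NOD 1.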
